A study of Homo sapiens with 8 samples.

Results

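UF1hypo and HCT116 cells that both carried a hairpin against UHRF1 (shUHRF1) were compared by RNA-seq, with 2 libraries of each line. These were the 4 of the 8 libraries of the series whose titles name shUHRF1, and every annotated gene of the deposited TPM (length-normalised transcript abundance, on the same total in each library) tables was read from them. HCT116 is a human colorectal carcinoma cell line, and UF1hypo is 1 heterozygous UHRF1 knockout clone made from it, in which exon 4 of 1 UHRF1 allele had been excised. Stable pools were made with lentiviral pLKO.1 vectors and puromycin, and the remaining 4 libraries came from the same lines with a control hairpin (shScr). The comparison asks how the lines differ once UHRF1 mRNA has been brought to a similar level in each. It does not match the lines for UHRF1 protein. The paper reported much less of that protein in UF1hypo than in HCT116, and a further sharp fall there after the knockdown. Because UF1hypo is a single clone, the lowered UHRF1 dose cannot be told apart from any other property of that clone. The sources used here give 2 harvest times after infection for such pools, and which of them applies to these libraries was not given.

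UHRF1 binds hemimethylated DNA behind the replication fork and brings in DNMT1, which copies the methyl mark onto the new strand. When this maintenance fails, promoters that were silenced by CpG methylation can come back on, among them cancer-testis antigens that adult somatic cells keep off. Transcripts from normally methylated repeats can also be sensed as viral RNA, which turns on interferons and the interferon-stimulated genes (ISGs). DNA methylation and protein were not analysed here.

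The position of the hairpin's target is shown because it is the sequence on which all 4 libraries depend. Read as the reverse complement of the antisense arm of the hairpin and written wholly in capitals, the target matched UHRF1 (chr19:4961574-4961594, GRCh38, plus strand) in exon 17 of the canonical transcript, in its untranslated part.
shUHRF1 target: GCCTTTGATTCGTTCCTTCTT
The same letters occurred once more in the genome, in an intron of PDE3A (chr12:20553784-20553804, plus strand).

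The UF1hypo shUHRF1 libraries stood apart from each other. Pearson's r between them was 0.9558 across protein-coding genes, against 0.9907 to 0.9923 in the other groups, and 1552 genes differed by over 1 on the log2 scale against at most 131 elsewhere. The difference between them followed the GC content of transcripts (Spearman's rho −0.814 for replicate 2 minus replicate 1, across genes, which are not independent replicates). The same rho was 0.508 in UF1hypo shScr and 0.042 and 0.068 in the HCT116 groups. The log2 fold change over HCT116 went with GC content at a rho of 0.648 in replicate 1 and of 0.129 in replicate 2, and the fold change between the lines with shScr at a rho of 0.446. Aligned bases ranged from 5.418 to 7.835 gigabases over the 8 libraries, and the tables hold no read counts, so counting error of single genes is unknown. For that reason counts of calls with shUHRF1 are also given for genes that kept their call in 4 alternative fits: without either UF1hypo shUHRF1 library in turn, after a correction for GC content and length, and after quantile normalization. Such genes are named stable calls here.

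UHRF1 (ENSG00000276043.5, chr19:4903080-4962154) had a TPM of 31.7 and 32.7 in the HCT116 shUHRF1 libraries and of 34.1 and 21.1 in the UF1hypo shUHRF1 libraries. Replicate 1 of UF1hypo lay above both HCT116 libraries and replicate 2 lay below them. The log2 fold change (UF1hypo minus HCT116, on log2(TPM + 1)) was −0.25 with a standard error of 0.22 and a 95% interval from −0.76 to 0.25 (limma, adjusted p = 0.409). It was 0.08 from replicate 1 alone and −0.59 from replicate 2 alone, so the direction rests on replicate 2. After a correction for GC content and length the log2 fold change of UHRF1 was −0.55 (limma adjusted p = 0.0119), within the interval above and short of the fold threshold, and with quantile normalization it was −0.35. With shScr the corresponding difference in UHRF1 was −0.91. These values describe mRNA of the whole gene, to which the allele without exon 4 may also contribute.

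Far more genes were higher in UF1hypo shUHRF1 than were lower. Calls required an absolute log2 fold change above 1 and a limma p-value, adjusted by Benjamini-Hochberg over all 13650 tested protein-coding genes, below 0.05. Of the tested genes, 1670 (12.2%) were called higher and 535 (3.92%) lower, and 907 (6.64%) and 205 (1.5%) of these were stable calls. The libraries of the lines did not overlap in any called gene, nor in 4910 higher and 3411 lower genes among all those tested. Labels do not say whether libraries of a group came from separate cultures, so p-values measure the spread between libraries only. That spread was pooled over all 4 groups, although the UF1hypo shUHRF1 libraries were further apart than those of any other group. With library weights, 0.193 for each UF1hypo shUHRF1 library against 1.39 to 2.33 for the others, 1173 genes were called higher and 322 lower. Counts over gene lists below describe the members that passed the filter of 1 TPM in at least 1 library. They are to be read beside the shares over all genes tested, 12.2% called higher and 3.92% called lower. The counts moved with the UF1hypo libraries: without replicate 1 they were 1489 higher and 303 lower, and without replicate 2 they were 2176 higher and 1683 lower. Without HCT116 shUHRF1 replicate 1 they were 1421 and 255, and without its replicate 2 they were 1257 and 328. With quantile normalization, which moved the median log2 fold change of all genes from 0.05 to −0.10, the split was 1185 higher and 987 lower. The median transcript GC content was 57.5% in genes called higher, 42.0% in genes called lower and 49.2% in the rest, and its part in these counts was not tested beyond the correction, which gave 1252 higher and 536 lower and kept 1119 of the 1670 and 321 of the 535.

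**Figure D1:**
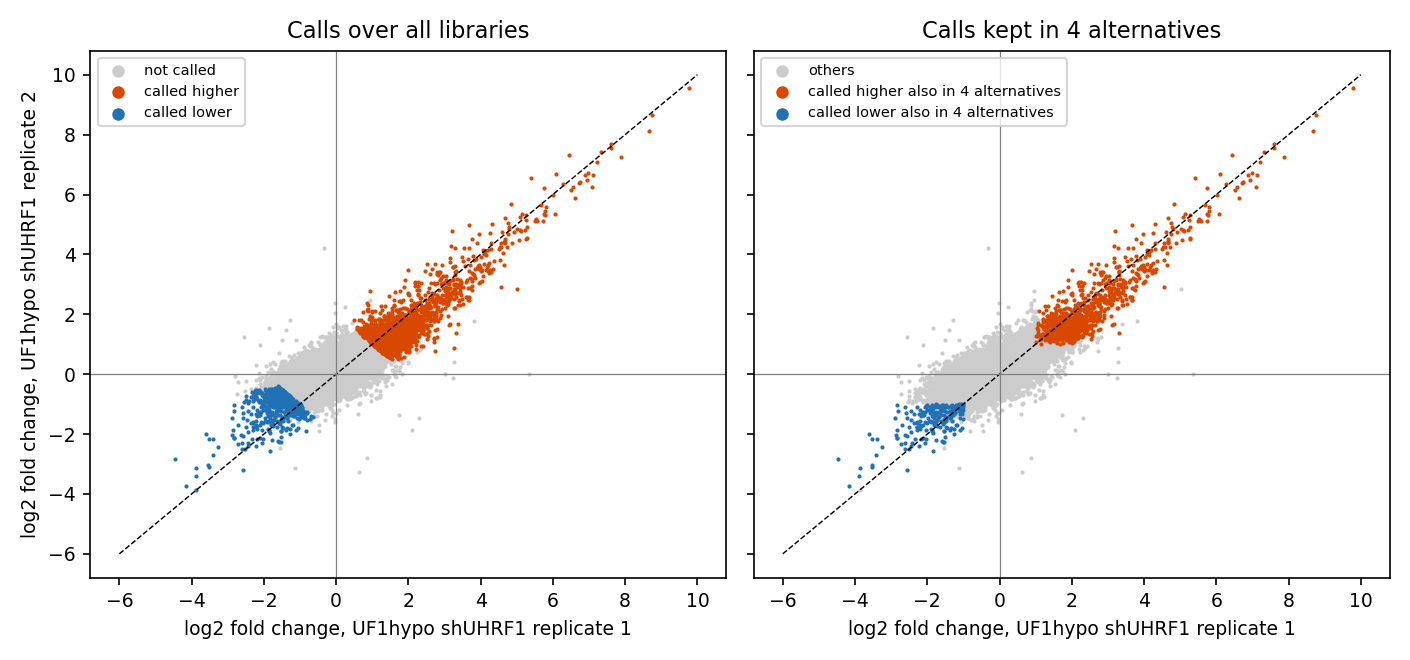
Log2 fold change over the HCT116 shUHRF1 mean for UF1hypo shUHRF1 replicate 1 (x axis) and replicate 2 (y axis), 1 point per tested gene, with the dashed line marking equal values. The left panel colours the 1670 genes called higher and the 535 called lower, the right panel the 907 and 205 stable calls. The genes with large increases lie close to the line, whereas the genes called lower spread toward larger decreases in replicate 1.

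None of the DNA methyltransferases or TET dioxygenases was called. DNMT1, the maintenance methyltransferase, had a TPM of 182 and 165 in HCT116 and of 204 and 172 in UF1hypo (log2 fold change 0.11). DNMT3B, a de novo methyltransferase, had 39.9 and 33.5 against 36.1 and 28.2 (−0.19), and DNMT3A had 7.29 and 8.31 against 13.2 and 9.20 (0.45). The demethylating dioxygenases TET2 and TET3 gave log2 fold changes of −0.18 and 0.05. TET1 had 1.78 and 0.977 against 0.430 and 0.655 TPM, without overlap between the lines (−0.61, limma adjusted p = 0.0943), and it was called lower with quantile normalization (−1.17). Of 19 tested genes of the DNA methylation machinery, 2 were called lower and none higher. CDCA7, which targets the remodeler HELLS to chromatin, fell from 76.4 and 70.7 to 17.4 and 31.6 TPM (−1.61, SE 0.25, limma adjusted p = 0.0024). HELLS fell from 59.2 and 57.2 to 13.9 and 33.6 TPM (−1.38), a call that was lost when UF1hypo replicate 1 was left out.

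The largest increases were in ISGs. Of 54 tested ISGs, 53 were called higher and 51 of them were stable calls, with a median log2 fold change of 3.87 against 0.05 over all genes tested. With either UF1hypo library left out in turn, 52 were called higher. IFITM1, which blocks viral entry at membranes, had a TPM of 1.34 and 2.20 in HCT116 and of 2388 and 2069 in UF1hypo (log2 fold change 9.67, SE 0.20, limma adjusted p = 9.06e-08). MX1, a GTPase that traps viral nucleocapsids, had 0.517 and 0.435 against 637 and 595 (8.71, SE 0.19, limma adjusted p = 9.06e-08). IFI27, an interferon-induced mitochondrial protein, had 9.81 and 13.3 against 5057 and 3470 (8.40). OAS1, which makes the activator of RNase L, had 0.080 and 0.192 against 220 and 235 (7.65). In each of these genes both UF1hypo libraries lay over 100 TPM above both HCT116 libraries.

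XAF1, a pro-apoptotic interferon-induced gene, and MX2, a restriction factor of retroviruses, were listed at 0 in both HCT116 shUHRF1 libraries. Their TPM in UF1hypo was 193 and 186 for XAF1 and 125 and 103 for MX2. IFI6 rose from 33.5 and 34.1 to 5555 and 5921 TPM, and BST2, the tethering factor that holds budding virus at the cell surface, rose from 5.97 and 7.68 to 1153 and 1066 TPM. ISG15, the ubiquitin-like modifier, went from 282 and 256 to 10510 and 6330 TPM (log2 fold change 4.92), the highest level among the genes of this group that are named here. DDX60L was the single ISG not called, with 97.9 and 78.0 TPM against 67.0 and 146. Its UF1hypo values straddled those of HCT116. The summed TPM of the list was 1803 and 1726 in HCT116 and 39199 and 30935 in UF1hypo. In bulk RNA, more cells with an active response and more RNA per cell cannot be told apart.

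**Figure D2:**
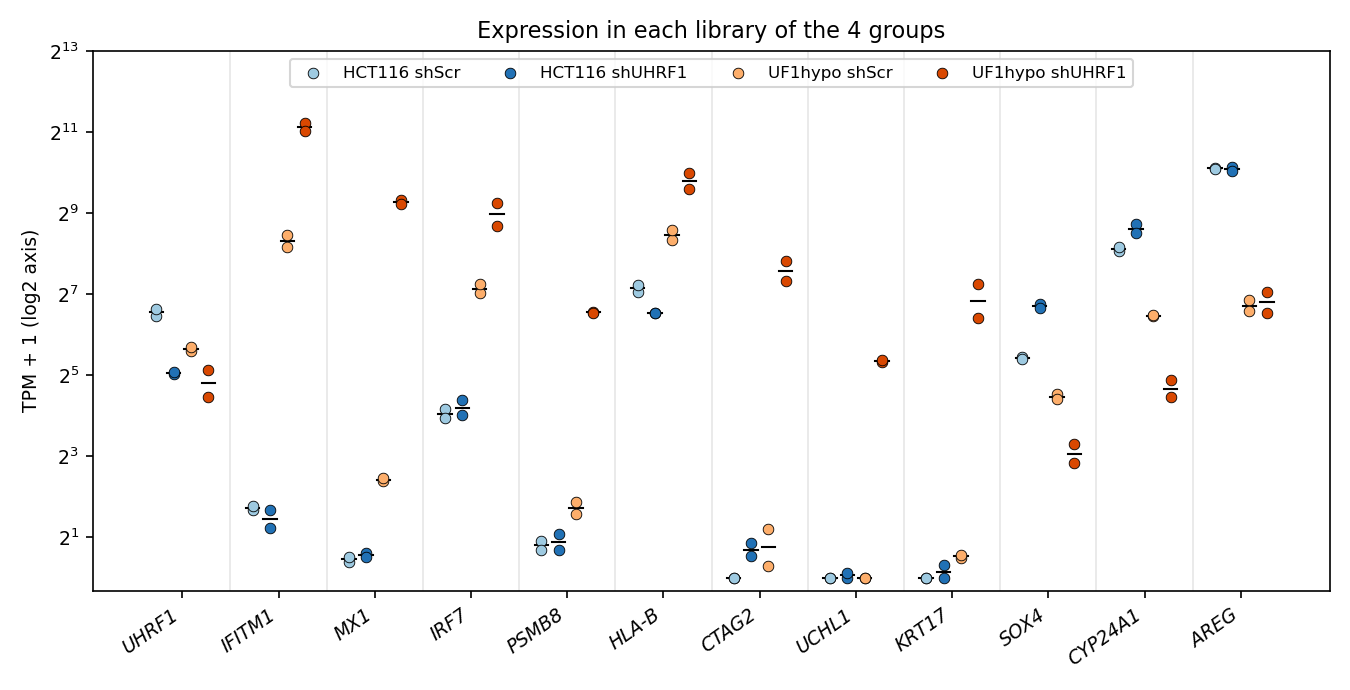
TPM + 1 on a log2 axis for 12 genes in each of the 8 libraries, with points for libraries and bars for the mean of the 2 log2 values of a group. UHRF1 overlaps between the shUHRF1 groups, whereas IFITM1 and MX1 lie above 500 TPM in UF1hypo shUHRF1 and below 3 TPM in HCT116. AREG is low in UF1hypo with either hairpin.

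Many promoters of the ISGs that rose hold a short motif, and the 3 shown belong to the ISGs with the largest increases among those with a single listed start and a match. The motif searched on both strands was GAAA, any 2 bases and GAAA again, the core of the interferon-stimulated response element. The windows run from 250 bases before to 50 bases after the start (RefSeq, GRCh38.p14), 5′ to 3′ on the gene's strand, with matches in capitals.
IFITM1 (chr11:313790-314089, plus strand): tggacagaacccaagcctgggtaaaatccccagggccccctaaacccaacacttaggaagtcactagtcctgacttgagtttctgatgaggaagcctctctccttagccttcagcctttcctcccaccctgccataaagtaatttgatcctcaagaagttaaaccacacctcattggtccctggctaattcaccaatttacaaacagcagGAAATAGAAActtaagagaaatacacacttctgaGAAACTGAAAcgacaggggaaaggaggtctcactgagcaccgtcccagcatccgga
IFI6 (chr1:27672143-27672442, minus strand): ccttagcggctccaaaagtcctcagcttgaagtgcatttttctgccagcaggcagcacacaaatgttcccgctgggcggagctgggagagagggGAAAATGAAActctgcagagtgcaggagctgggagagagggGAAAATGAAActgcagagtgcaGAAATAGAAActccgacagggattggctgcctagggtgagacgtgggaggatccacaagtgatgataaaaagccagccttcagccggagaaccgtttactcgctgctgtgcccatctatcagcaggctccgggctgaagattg
BST2 (chr19:17405581-17405880, minus strand): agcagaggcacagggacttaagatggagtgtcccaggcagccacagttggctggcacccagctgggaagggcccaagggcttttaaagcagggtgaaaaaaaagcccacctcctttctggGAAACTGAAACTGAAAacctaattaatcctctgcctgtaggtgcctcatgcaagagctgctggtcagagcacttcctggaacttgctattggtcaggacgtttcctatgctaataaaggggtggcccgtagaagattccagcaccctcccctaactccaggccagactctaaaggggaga
IFITM1 and BST2 held 2 matches each, which overlap in BST2, and IFI6 held 3. A window was found for 43 of the 54 tested ISGs, and 29 of these 43 (67.44%) held the motif in any of their windows. Counted by gene in the same way, 417 of the 10844 tested genes with a window (3.85%) held it. Counted by single window, 3.57% of all 35116 windows did. Because fewer than 80% of the ISGs had a window, that comparison is void as a test and stands as a count. For MHC class I genes, 16 of 20 had a window and 11 held the motif.

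Many sensors of foreign nucleic acid and factors that relay interferon signals were called higher. Of 32 tested genes in this list, 19 were called higher, 17 of them as stable calls, 13 were not called and none was lower (median log2 fold change 1.47). The RNA sensors IFIH1 (MDA5) and RIGI rose from 4.23 and 4.83 to 105 and 144 TPM and from 6.14 and 3.95 to 57.1 and 110 TPM. DHX58, a regulator of both, rose from 1.14 and 3.01 to 113 and 86.4 TPM (5.09, SE 0.33). Among the transcription factors, IRF7 rose from 19.9 and 15.1 to 608 and 407 TPM (4.77) and IRF9 from 5.71 and 4.85 to 109 and 106 (4.11). IRF3, which is activated by phosphorylation rather than by induction, had 115 and 119 against 269 and 172 TPM and was not called (0.88, limma adjusted p = 0.0182).

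Interferon genes stood at low levels. IFNL1, a type III interferon, had a TPM of 0 and 0.123 in HCT116 and of 14.0 and 9.55 in UF1hypo (log2 fold change 3.57, limma adjusted p = 7.12e-05). IFNL2 and IFNL3 were listed at 0 in both HCT116 libraries and at 4.76 and 1.88 and at 10.3 and 4.65 TPM in UF1hypo. These paralogs are nearly identical, and how reads were split between them is uncertain. IFNB1, a type I interferon gene, did not pass 1 TPM in any shUHRF1 library and was not tested. IFNE, another type I interferon gene, had 1.02 and 1.23 against 1.56 and 5.55 TPM and was not called (0.95, limma adjusted p = 0.0937). The receptor chains IFNAR1 and IFNAR2 and the kinase TBK1 gave log2 fold changes of −0.34, −0.16 and −0.20 and were not called.

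Antigen presentation through MHC class I followed the same direction. Of 20 tested genes, 17 were called higher, 16 of them as stable calls, with a median log2 fold change of 1.90. The immunoproteasome subunit PSMB8 rose from 0.593 and 1.12 to 93.0 and 91.9 TPM (5.67, SE 0.23, limma adjusted p = 2.11e-06) and PSMB9 from 7.40 and 5.73 to 347 and 273 TPM (5.36). PSMB9 overlaps PSMB8 on the opposite strand of chromosome 6. It also overlaps the peptide transporter gene TAP1 on that strand, which rose from 51.9 and 48.5 to 344 and 291 TPM. Reads could be shared between PSMB9 and either of these genes where strand was not used. The heavy chain gene HLA-B rose from 90.7 and 90.7 to 1011 and 776 TPM (3.27), and NLRC5, the transactivator of these genes, from 3.90 and 4.79 to 71.2 and 47.0 (3.47). CALR, a chaperone of the loading complex, was not called (0.56).

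Genes under 1 TPM in both HCT116 shUHRF1 libraries made up 36.7% of the genes called higher. They were 613 of the 1670, and 339 of them were stable calls. Of all genes tested 1151 were under 1 TPM in those libraries and so passed the filter through UF1hypo shUHRF1, which favours a higher value there, so the share is a description. Among the 1670, 135 were listed at 0 in both HCT116 shUHRF1 libraries and 92 in all 4 HCT116 libraries. Most came up to low levels, with a median of the mean TPM in UF1hypo shUHRF1 of 2.81, while 85 exceeded 10 TPM and 15 exceeded 50 TPM. Of the 613, 444 were under 1 TPM in both UF1hypo shScr libraries as well. In the other direction, 46 of the 535 genes called lower were under 1 TPM in both UF1hypo shUHRF1 libraries.

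**Figure D3:**
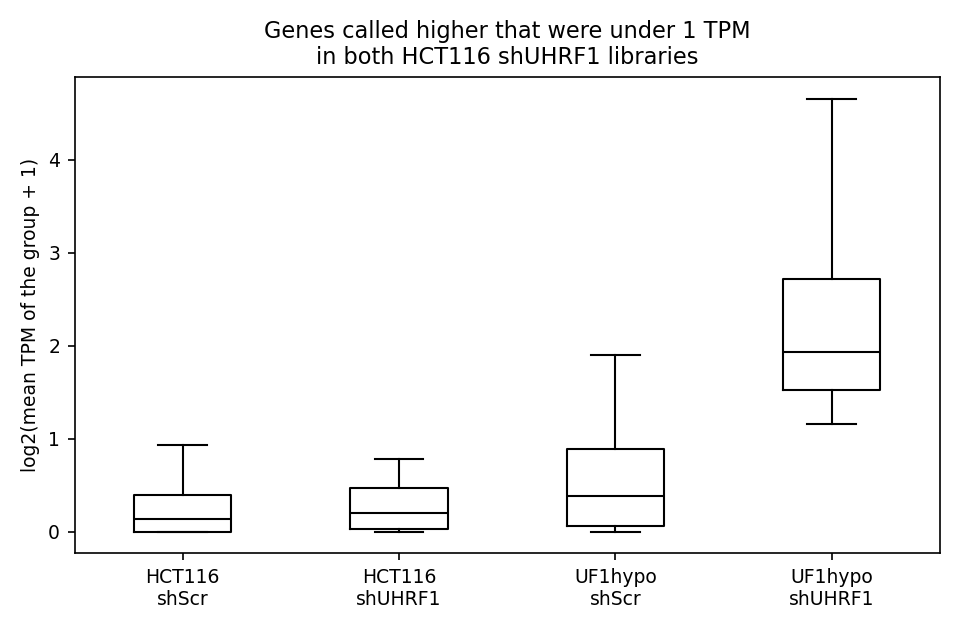
Level of the 613 genes called higher that were under 1 TPM in both HCT116 shUHRF1 libraries, as log2 of the group's mean TPM plus 1; boxes give quartiles, lines medians and whiskers the 5th and 95th percentiles over genes. The HCT116 medians are 0.13 with shScr and 0.20 with shUHRF1, and those of UF1hypo are 0.38 and 1.93. The genes were selected for the HCT116 and UF1hypo shUHRF1 groups, so the gap between these is no test.

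Cancer-testis antigens, which are silenced by promoter methylation in somatic cells and recognised by T cells when tumors express them, came up in UF1hypo. Of 49 listed genes, 27 passed the filter of 1 TPM in some library, and a gene that passed only through UF1hypo had to differ, so the 24 called higher are a description of those 27. Their median log2 fold change was 3.52, and 22 were stable calls. CTAG2, which encodes the antigen LAGE-1, had 0.809 and 0.446 TPM in HCT116 and 223 and 160 in UF1hypo (6.87, SE 0.32, limma adjusted p = 3.5e-06). MAGEA1 had 0.714 and 0.411 against 99.1 and 97.2 TPM (5.99), and GAGE2A had 1.47 and 1.28 against 126 and 95.5 (5.54). PNMA5 was listed at 0 in both HCT116 shUHRF1 libraries and at 105 and 83.3 TPM in UF1hypo. MAGEB2 was already high in HCT116, with 162 and 157 TPM against 111 and 210, and was not called (−0.06). The GAGE, MAGE-A and CT45 genes are multicopy families whose members may share reads. Of 42 listed meiosis and piRNA genes, 26 were under 1 TPM in all 4 shUHRF1 libraries and 16 were tested. Of the 16, 4 were called higher, against 12.2% over all genes tested, led by MAEL with 0.542 and 0 TPM against 5.02 and 8.67 (2.62). MAEL, TEX101 and TDRD12 passed the filter only through UF1hypo, so this count is a description too.

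The 10 genes of the study's tumor suppressor gene panel were nearly off in HCT116 shUHRF1, with a summed TPM of 0.56 and 0.98, against 89.7 and 76.9 in UF1hypo shUHRF1. Of these, 9 were called higher and 8 were stable calls, and all 10 had passed the filter through UF1hypo. The study reported these genes as re-activated by the knockdown in UF1hypo cells, so the panel's direction is not independent evidence. UCHL1 (ENSG00000154277.13, chr4:41256413-41268455), a ubiquitin hydrolase, was the highest of the panel, with 0 and 0.0775 TPM in HCT116 and 38.7 and 40.1 in UF1hypo (5.28, SE 0.19, limma adjusted p = 1.06e-06). ICAM4, an adhesion molecule, had 0 and 0.254 against 11.1 and 9.0 TPM (3.29), and FBLN2, an extracellular matrix protein, had 0.258 and 0.131 against 11.0 and 6.13 (2.95). TFF2, a trefoil peptide, was listed at 0 in both HCT116 libraries and at 9.19 and 6.44 TPM in UF1hypo. SFRP1, a secreted WNT antagonist, reached 0.704 and 1.29 TPM and was not called (0.96). Its log2 fold change was 0.75 from UF1hypo replicate 1 alone and 1.18, above the fold threshold, from replicate 2 alone.

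The promoters of UCHL1 and GAGE2A are shown as those of silenced genes that came on, with CpG sites, the substrate of the methyltransferases, in capitals (RefSeq, GRCh38.p14, same window).
UCHL1 (chr4:41256678-41256977, plus strand): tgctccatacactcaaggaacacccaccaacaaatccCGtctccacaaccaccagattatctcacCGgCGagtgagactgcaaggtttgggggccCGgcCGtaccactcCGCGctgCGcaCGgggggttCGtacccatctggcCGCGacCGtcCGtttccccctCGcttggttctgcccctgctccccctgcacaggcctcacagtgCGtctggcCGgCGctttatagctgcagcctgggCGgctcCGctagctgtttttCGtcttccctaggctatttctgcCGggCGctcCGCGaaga
GAGE2A (chrX:49589246-49589545, plus strand): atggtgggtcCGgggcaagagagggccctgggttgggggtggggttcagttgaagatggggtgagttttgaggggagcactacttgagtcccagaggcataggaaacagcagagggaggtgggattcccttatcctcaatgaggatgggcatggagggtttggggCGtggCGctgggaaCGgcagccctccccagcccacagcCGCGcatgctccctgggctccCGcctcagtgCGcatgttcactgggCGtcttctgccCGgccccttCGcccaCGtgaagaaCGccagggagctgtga
UCHL1 held 25 CpG sites in 300 bases and GAGE2A 13, where the median of all windows was 14. Their methylation was not measured here.

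Keratins formed the other prominent group. Of 19 tested keratin genes, 17 were called higher and 14 were stable calls, with a median log2 fold change of 2.52. With shScr, 10 of the 19 were already called higher between the lines, with a median of 1.06. KRT81, a hair keratin, rose from 3.10 and 2.22 to 427 and 361 TPM (6.76), KRT17, a keratin of basal and wounded epithelia, from 0.233 and 0 to 150 and 83.4 (6.67), and KRT13 of stratified mucosa from 2.11 and 2.02 to 327 and 258 (6.57). KRT20, an intestinal keratin, rose from 1.88 and 2.11 to 75 and 111 TPM (4.95). KRTAP3-1, a keratin-associated protein of hair, was outside the list and rose from 3.37 and 0.871 to 673 and 431 TPM (7.56). The simple-epithelium keratin KRT8 went from 2254 and 2143 to 5035 and 3525 TPM and was not called (0.94).

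Among 17 tested genes of squamous differentiation, 10 were called higher (8 stable) and 2 lower (both stable). The kallikrein protease KLK5 rose from 0.041 and 0 to 92.2 and 70.9 TPM (6.33) and KLK10 from 3.18 and 3.48 to 65.9 and 48.2 (3.73), whereas the desmosomal cadherins DSC2 and DSC3 fell by 1.61 and 2.25 on the log2 scale. TP63, IVL and the SPRR genes, which define squamous cells, did not pass 1 TPM in the shUHRF1 libraries. Of 18 genes of epithelial-mesenchymal transition, 12 were called higher (9 stable), led by the matrix genes SPARC, with 2.23 and 1.39 against 41.0 and 33.3 TPM (3.77), and FN1, with 6.16 and 5.56 against 45 and 38 (2.63). CDH1, the epithelial cadherin, was called higher too, with 37.9 and 35.4 against 102 and 112 TPM (1.52). Of 38 listed intestinal identity genes, 18 were tested. Of these, 5 were called higher, of which 2 were stable calls, and 4 lower, all of them stable, against 12.2% and 3.92% over all genes tested. Among the higher, MUC5AC, PHGR1 and MYO1A passed the filter only through UF1hypo. The stable increases were CDH1 and CEACAM1, an adhesion molecule gene with 2.20 and 1.72 against 6.76 and 9.70 TPM (1.63). The lower ones include HNF4A, an enterocyte transcription factor, with 7.22 and 8.43 against 2.67 and 1.2 TPM (−1.63), and CA2, a carbonic anhydrase, with 31.8 and 37.6 against 4.80 and 5.32 (−2.56).

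The genes called lower were led by CYP24A1, the hydroxylase that degrades active vitamin D, which fell from 421 and 359 to 20.8 and 28.5 TPM (log2 fold change −3.94, SE 0.18, limma adjusted p = 3.1e-06). SOX4, a transcription factor of progenitor cells, fell from 107 and 100 to 6.11 and 8.81 TPM (−3.65), and ANXA10, an annexin of the gastric epithelium, from 121 and 96.0 to 6.42 and 11.5 (−3.50). WNT16, a WNT ligand, fell from 162 and 165 to 13.3 and 18.4 TPM (−3.30). The kinase subunit gene PRKACB fell from 106 and 96.3 to 3.60 and 13.4 TPM (−3.65), and KITLG, the ligand of the KIT receptor, from 537 and 472 to 40.3 and 125 (−2.81). For these last 2 genes the UF1hypo libraries differed widely, with replicate 1 the lower. ENSG00000254692 was also among the 12 largest decreases (−3.87), and its call was not stable.

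The epidermal growth factor ligand genes AREG and EREG fell. AREG went from 1112 and 1054 to 92.0 and 131 TPM (−3.29, SE 0.18, limma adjusted p = 8.73e-06) and EREG from 232 and 235 to 19.4 and 51.2 TPM (−2.85), and both groups were apart without overlap. Of 28 tested genes of EGFR ligands and MAPK output, 6 were called lower (5 stable) and 4 higher (3 stable). Over all genes tested 3.92% were called lower and 12.2% higher, and the share called higher in this list was near the latter. The ligand gene HBEGF was among the higher, with 6.67 and 6.76 against 23.2 and 21.7 TPM (1.60, a stable call), while the ligand genes TGFA (0.78) and BTC (−0.30) were not called. ETV1, a MAPK-responsive ETS factor, fell from 20.3 and 14.5 to 2.37 and 2.70 TPM (−2.36), while the receptor gene ERBB2 rose from 39.6 and 32.3 to 143 and 99.9 TPM (1.71). The feedback gene IER3 had 613 and 696 against 415 and 459 TPM and was not called (−0.58).

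Some cell cycle genes were called lower, in numbers that depended on the library. All 30 tested G2 and mitosis genes had a negative log2 fold change in the fit of all libraries (median −0.89, and −0.75 after the GC correction), and 11 were called lower, 3 of them as stable calls. The number was 3 without UF1hypo replicate 1, 20 without replicate 2, 6 after the GC correction and 14 with quantile normalization. PTTG1, the securin, fell from 274 and 278 to 64.9 and 128 TPM (−1.59) and MAD2L1, a spindle checkpoint protein, from 64.5 and 61.8 to 12.1 and 28.9 (−1.70), both as stable calls. CDK1 had 170 and 160 against 34.3 and 107 TPM (−1.43, not a stable call), and CDC20 had 528 and 476 against 573 and 418 (−0.03, not called). Of 36 DNA replication genes, 4 were called lower and none higher (median −0.41, with 7 of the 36 above 0), with RRM1, a subunit of ribonucleotide reductase, the only stable call (−1.37). Without replicate 2 the number called lower was 10, and without replicate 1 it was 1. Of 36 cytosolic ribosomal protein genes, 33 were negative and only RPL7 was called, not as a stable call (median −0.45). Without UF1hypo replicate 2 the number called lower was 6, and without replicate 1 it was 0.

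The shares called in the remaining pathways lay on either side of those over all genes tested, 12.2% higher and 3.92% lower. Of 29 p53 target genes, 2 were called higher, neither stable, and 2 lower, 1 of them stable, with CDKN1A at a log2 fold change of −0.66. The list's median was −0.30 from UF1hypo replicate 1 alone and 0.01 from replicate 2 alone. Both p53 counts differed with the UF1hypo library that was left out, as did the numbers called lower in the hypoxia and ATF4 lists below. Of 30 genes of hypoxia and glycolysis, 2 were called higher and 2 lower. The glucose transporter SLC2A3 was the stable increase among them, from 4.54 and 3.87 to 66.1 and 94.3 TPM (3.94). Of 14 WNT targets and antagonists, 2 were called, both higher and stable. DKK4, a secreted antagonist, rose from 0.365 and 0.431 to 34.5 and 30.6 TPM (4.58) and NOTUM, a WNT deacylase, from 14.7 and 14.7 to 73.4 and 58.4 (2.09). Of 16 tested imprinted genes, 3 were called higher (1 stable) and 1 lower. PEG10 rose from 3.72 and 3.81 to 12 and 15.9 TPM (1.64) and MEST fell from 40.1 and 34.6 to 14.0 and 17.3 (−1.2). The list also holds long noncoding RNA genes, which the calls given here, made over protein-coding genes, do not cover. Among them H19 had 3.34 and 4.47 TPM in HCT116 and 1134 and 827 in UF1hypo, and MEG3 was listed at 0 in both HCT116 libraries and at 8.67 and 3.81 TPM in UF1hypo. Of 27 ATF4 stress genes, 4 were called higher (3 stable) and 2 lower (none stable), with a median of 0.04. The stress factor DDIT3 rose from 13.4 and 16.5 to 41.7 and 48.9 TPM (1.54). Of 3 tested genes of retroviral envelope origin, ERVMER34-1 was called lower, from 16.3 and 16.5 to 5.51 and 7.84 TPM (−1.2), a call lost without UF1hypo replicate 1 (−0.98) and after the GC correction.

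The same lines with shScr, which share no library with the shUHRF1 groups, show which differences the clone already carried. There, 333 of 12856 tested genes (2.59%) were called higher and 122 (0.949%) lower. Leaving out any 1 of the 4 shScr libraries gave 122 to 151 higher and 23 to 39 lower, and the shares that follow rest on the larger counts. Of the 333, 271 (81.4%) were called higher with shUHRF1 as well, and these were 16.2% of the 1670. Their median log2 fold change was 1.61 with shScr and 2.52 with shUHRF1. The remaining increases were mainly not called with shScr: 1398 genes with medians of 0.29 and 1.42, of which 446 did not pass 1 TPM in the shScr libraries. Of these 1398 genes, 1072 had a positive value with shScr too, and the difference between the hairpins was called for 491. Of the 122 genes called lower with shScr, 59 (48.4%) were called lower with shUHRF1, and these were 11.0% of the 535. Of the 474 genes called lower with shUHRF1 alone, 435 had a negative value with shScr too, and the difference was called for 42. With library weights, 436 genes were called higher and 162 lower with shScr, against the 333 and 122 used here.

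The difference between the comparisons was tested as an interaction. It was called for 625 of 13781 genes (4.54%) as more positive with shUHRF1 and for 77 (0.559%) as more negative. After the GC correction the counts were 777 and 269, and with quantile normalization 356 and 117. The total of 702 ranged from 171 to 2142 when each library was left out in turn. Leaving out UF1hypo shUHRF1 replicate 2 gave the 2142, of which 1385 were more positive and 757 more negative, and leaving out HCT116 shUHRF1 replicate 2 the 171. Within the ISGs the difference was called for 29 of 54. IFI27 and IFI6 had log2 fold changes of 7.97 and 6.52 already with shScr, and their differences were not called. That of IFI6 was 0.85 (SE 0.19, limma adjusted p = 0.043), short of the fold threshold only. In UF1hypo their TPM was 1098 and 1196 and 1721 and 1698 with shScr, below the values with shUHRF1. MX1 had 4.22 and 4.49 TPM in UF1hypo with shScr and a difference of 6.74 (SE 0.26, limma adjusted p = 4.06e-05). The median over the ISGs was 1.97 with shScr and 3.87 with shUHRF1.

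Cancer-testis and panel genes that passed the filter only through UF1hypo shUHRF1 were bound to lean toward a larger difference with that hairpin. The study also reported the panel as re-activated by the knockdown in UF1hypo cells, so the counts that follow are descriptions. The difference was called for 19 of 27 tested cancer-testis genes, whose median with shScr was 0.25, and for 6 of the 10 panel genes, whose median with shScr was 0. UCHL1 was listed at 0 in all 4 shScr libraries. GPX3, a secreted glutathione peroxidase, had 0.0589 and 0.163 TPM in UF1hypo shScr and 69.3 and 50.8 with shUHRF1, against at most 0.743 in HCT116. SOHLH1, a germline transcription factor, had at most 0.0432 in UF1hypo shScr against 38.9 and 32.1 with shUHRF1. Among the 19 tested keratins the difference was called for 8. KRT17 stood at 0.406 and 0.484 TPM in UF1hypo shScr, whereas KRT7 gave a log2 fold change of 3.47 with shScr and 3.34 with shUHRF1. Among decreases, NR2F1, a nuclear receptor, had 75.9 and 72.8 TPM in UF1hypo shScr and 17.6 and 15.5 with shUHRF1. In HCT116 shScr it had 75.9 and 72.5. SOX4 had 22.2 and 20.2 TPM in UF1hypo shScr and 42.9 and 40.8 in HCT116 shScr. With shUHRF1 its level was thus lower in UF1hypo and higher in HCT116. ARID5B, TMSB15A and ABCC2 also stood higher in HCT116 with shUHRF1 than with shScr.

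Some differences of the clone did not grow. AREG was as low in UF1hypo shScr, at 114 and 93.8 TPM, as in UF1hypo shUHRF1, and LY6D, a squamous surface protein, gave 6.18 with shScr and 5.70 with shUHRF1. DPEP1, a membrane dipeptidase, was lower in UF1hypo, with log2 fold changes of −4.45 with shScr and −1.89 with shUHRF1, a difference that was called. HNF4A moved likewise, from 0.313 and 0.0545 TPM in UF1hypo shScr to 2.67 and 1.2, without a called difference. In opposite directions 3 genes were called. CHAC1, a glutathione-degrading enzyme under ATF4, was lower in UF1hypo with shScr (16.8 and 18.1 against 77.6 and 76.0 TPM) and higher with shUHRF1 (75.2 and 68.2 against 33.8 and 29.1), and its call with shUHRF1 was lost after the GC correction (0.72). CA9, a hypoxia-induced carbonic anhydrase, was higher with shScr (13 and 16.1 against 4.86 and 6.52) and lower with shUHRF1 (1.38 and 0.420 against 3.57 and 4.32), as was RAB26, a vesicle GTPase. The CA9 call with shScr had a limma adjusted p of 0.0499, and that with shUHRF1 was lost without HCT116 shUHRF1 replicate 2 (−1.31) and with library weights. ATF4 stress genes as a list had a median of −0.91 with shScr, where 11 of the 27 were called lower, and 0.04 with shUHRF1. The difference was called more positive for 10 of the 27, against 4.54% of all genes.

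**Figure D4:**
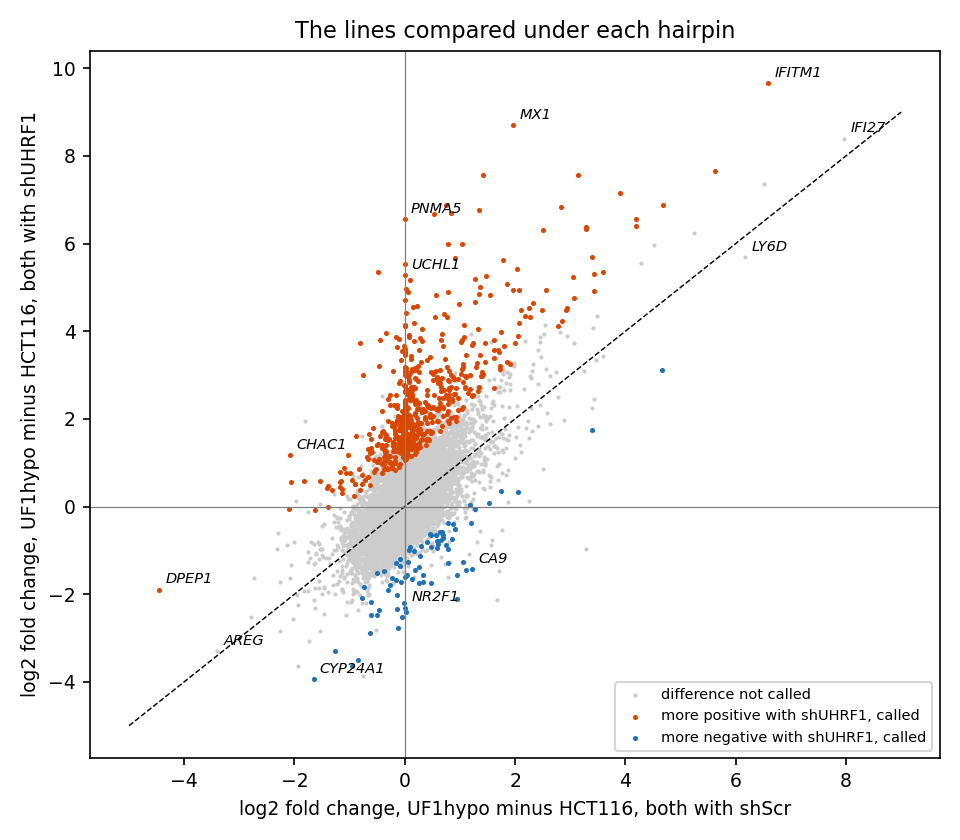
Log2 fold change between the lines with shScr (x axis) and with shUHRF1 (y axis), 1 point per gene tested with shUHRF1; colours mark genes whose difference between the comparisons was called, and the dashed line marks equal values. IFI27 and AREG lie near the line, UCHL1 and PNMA5 lie near 0 with shScr, and CHAC1 and CA9 lie in the quadrants of opposite sign.

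By chromosome, the share of tested genes called higher was largest on chromosome X, with 95 of 459 genes (20.7%), against 11.9% over the autosomes. Among stable calls the shares were 12.6% and 6.44%. Of the 95 genes, 23 were on the cancer-testis list and 72 were not, and 60 were under 1 TPM in both HCT116 shUHRF1 libraries. The autosomal shares ran from 4.7% on chromosome 18 to 17.2% on chromosome 17. For genes called lower, chromosome 4 had the largest share, 9.7%. No test was made across chromosomes, whose genes differ in GC content.

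The libraries were checked against markers of the labelled cells and of cells that could be mixed in. Among markers of a colorectal epithelial line, EPCAM had 302 and 311 TPM in HCT116 and 174 and 314 in UF1hypo, and KRT18 and KRT19 were above 1400 TPM in all 4 libraries, while VIL1 and CDH17 were under 1 TPM, as were CDX1 and LGALS4. Of 15 leukocyte markers, 4 passed 1 TPM. CD68 rose from 6.27 and 7.30 to 107 and 77.7 TPM and CD3D from 0 and 0.349 to 5.05 and 2.99, while PTPRC, the defining leukocyte gene, was at most 0.073. Of 14 fibroblast and endothelial markers, 3 passed 1 TPM, with THY1 rising from 0 and 0.127 to 5.72 and 4.93 TPM, and COL3A1 was at most 0.212.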

How the data were processed

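PolyA RNA of 8 libraries, 2 in each of 4 groups, was sequenced paired-end. Per the submitters' processing notes, the authors trimmed reads with Fastp, aligned them with HISAT2 2.0.4 to GRCh38 and estimated abundance with StringTie 2.1.4. The deposited values are TPM per gene, used throughout, the authors' FPKM, used as an alternative, and the authors' coverage (a signal of mean read depth per base), used with FPKM only to recover the aligned bases. The authors tested with DESeq2, which needs counts, and the tables hold none.

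Records of an identifier were summed (2 were repeated), and GENCODE 44 gave 19942 protein-coding genes. Genes that exceeded a TPM of 1 in some library of a comparison were tested on log2(TPM + 1) by limma 3.58.1 (R 4.3.3) with a mean-variance trend, over all 8 libraries and 4 groups (4 residual degrees of freedom). Fold changes on this scale understate changes of low genes. Calls needed a Benjamini-Hochberg adjusted p-value below 0.05 and an absolute log2 fold change above 1. Data were also simulated for the shUHRF1 comparison over 13650 genes. Of 200 genes changed by 1.5, 2 and 3 on the log2 scale, 153, 196 and 200 were recovered. A further 17, 41 and 28 genes were called. The noise was drawn independently for each gene, and the changed genes all had a mean log2(TPM + 1) above 2. These counts therefore do not carry over to the GC pattern of the UF1hypo shUHRF1 libraries or to low genes. An exact two-sided permutation test of 2 against 2 libraries cannot give a p below 0.33.

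The comparison, its members and the 24 gene lists were chosen with earlier results of these data known. Named genes were UHRF1, the DNMT and TET genes, the study's panel, the 12 largest called changes each way whose libraries do not overlap, the 6 largest each way that were called together with the difference between the hairpins and lay within 0.5 of 0 with shScr, genes called in opposite directions, and in each list the 4 largest calls and the most abundant gene not called. Further named genes were chosen after their values were seen. Stable calls, which combine 4 alternatives, were defined after seeing the data. Y-linked genes and some genes that the rule names are not reported here. In all, 21 alternative settings were run.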

Additional observations from a re-analysis of the deposited data

Results flagged for a closer look

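The line difference itself differed between hairpins by the interaction test in limma for 625 genes that were more positive with shUHRF1 and for 77 that were more negative. These counts were 777 and 269 after the GC correction, 1385 and 757 without UF1hypo shUHRF1 replicate 2, and 153 and 18 without HCT116 shUHRF1 replicate 2. Values in parentheses are the difference with shUHRF1 minus that with shScr on the log2(TPM + 1) scale, and several of these genes are listed at 0 in a group, where the value is no fold. Among interferon-stimulated, sensing and antigen presentation genes these were MX1 (6.74), XAF1 (4.44), MX2 (4.02), BST2 (3.26), DHX58 (3.24), IFITM1 (3.07), IFI44 (2.20), OAS1 (2.03), IRF7 (1.69), IFIH1 (1.56), IRF9 (1.33), PSMB8 (4.76), NLRC5 (2.35), HLA-F (1.76) and PSMB9 (1.76). Genes of the germline lists were PNMA5 (6.56), CTAG2 (6.12), GAGE2A (5.54), MAGEA10 (5.07), MAGEA1 (4.96), SOHLH1 (4.92), MAEL (2.62), TEX101 (1.80), TDRD12 (1.62) and TEX19 (1.60), counting SOHLH1, a germline factor named for its difference. Panel genes were UCHL1 (5.28), ICAM4 (3.0), TFF2 (2.94), FBLN2 (2.90), GATA5 (2.26) and GATA4 (1.92), and epithelial and matrix genes were KRTAP3-1 (6.15), KRT17 (6.14), KRT81 (5.42), KRT20 (2.98), KRT13 (2.37), KLK5 (3.05), SPARC (3.61), CCN2 (2.03), FN1 (1.98), CDH1 (1.14) and DPEP1 (2.56). Stress genes were CHAC1 (3.24), ATF5 (2.07), DDIT3 (1.91) and NUPR1 (1.89), markers of other cell types were THY1 (2.50), CD68 (1.95) and CD3D (1.90), and others were GPX3 (5.83), DKK4 (4.36) and SLC2A3 (3.28). More negative with shUHRF1 were ETV1 (−1.90), WNT16 (−2.03), ABCC2 (−2.20), HS3ST1 (−2.26), CYP24A1 (−2.29), NR2F1 (−2.31), GNAI1 (−2.43), ARID5B (−2.47), RAB26 (−2.55), CA9 (−2.65), ANXA10 (−2.65), TMSB15A (−2.66) and SOX4 (−2.70). PNMA5, GAGE2A, MAGEA10, SOHLH1, UCHL1, GPX3 and some of the decreases came under a naming rule that required a called difference. Germline and panel genes that passed the filter only through UF1hypo shUHRF1 were bound to lean toward a positive difference. The values of both kinds are descriptions. Groups of 2 libraries were too small for a test of outlying samples.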

How the results depend on the processing

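Of the 142 named genes 112 were called, and all of these but 26 kept their call wherever they were tested in the 21 settings. The 26 lost it in 101 instances. None of the 112 changed direction. The number called higher was 1111 with FPKM in place of TPM and 1173 with library weights, against 1670. The number called lower was 987 with quantile normalization and 322 with library weights, against 535. With all annotated genes, 2276 were called higher. The number called for the difference between the hairpins was 448 with a pseudocount of 0.1 and 419 with library weights, against 702. When each library was left out in turn, 1257 to 2176 genes were called higher, 255 to 1683 lower, 149 to 594 with shScr (against 455) and 171 to 2142 for the difference. The lowest count with shScr came without HCT116 shScr replicate 1, and the highest without either UF1hypo shUHRF1 library. A lone library was then assumed to vary like the other groups. The cause of these shifts was not tested.

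UHRF1 ranged from −0.59 to 0.08 when a library was left out. Of genes not called, direction also changed for CDC20 (−0.26 to 0.19), CNFN (−1.0 to 0.63), DDX60L (−0.38 to 0.73), DNMT1 (−0.01 to 0.23), EPCAM (−0.82 to 0.04), GAPDH (−0.05 to 0.37), GNAS (−0.19 to 0.05), MAGEB2 (−0.51 to 0.40), TET2 (−0.44 to 0.08) and TET3 (−0.15 to 0.26) when a library was left out. After the GC and length correction the values were −0.18 for DNMT1, −0.08 for GAPDH, 0.09 for MAGEB2, 0.11 for TET2, −0.19 for TET3 and −0.34 for TGFB1.

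Replicate numbers did not pair the samples: deviations of same-numbered libraries correlated at −0.029 between the shUHRF1 groups and at 0.026 between the shScr groups, and at −0.402 between UF1hypo shScr and UF1hypo shUHRF1, which both enter the difference. With the replicate block, 1666 genes were called higher and 505 lower with shUHRF1, 369 with shScr and 471 for the difference. The TPM values carry no read counts, so a depth limit for single genes was not computed.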

Other observations

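Most called genes lay outside the 24 lists: 1483 of those called higher, 746 of them as stable calls, and 497 of those called lower, 186 as stable calls. The genes named here were chosen after their values were seen. Several immune effectors outside the lists were higher in UF1hypo shUHRF1. CFB, complement factor B, had a TPM of 0.557 and 0.125 in HCT116 and of 125 and 99.1 in UF1hypo (log2 fold change 6.4). APOL1, an apolipoprotein that lyses trypanosomes, had 0.184 and 0.350 against 97.0 and 103 TPM (6.32), and APOL3 was listed at 0 in both HCT116 libraries and at 26.8 and 28.0 TPM in UF1hypo. UBA7, the activating enzyme for ISG15, had 1.09 and 1.11 against 111 and 71.3 TPM (5.42). PDCD1, which encodes the checkpoint receptor PD-1 of T cells, had 0.244 and 0.0428 against 25.2 and 20.7 TPM (4.39).

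Among other genes, DHRS2, a short-chain dehydrogenase, had 16.2 and 16.2 against 951 and 748 TPM (5.61), and CPA4, a carboxypeptidase, had 8.46 and 11.1 against 406 and 376 TPM (5.19). TGM2, the tissue transglutaminase, had 6.38 and 5.70 against 123 and 76.8 TPM (3.80). In the other direction, HMGB2, a chromatin protein of proliferating cells, had 791 and 771 against 109 and 178 TPM (−2.48), and ERRFI1, a feedback inhibitor of EGFR, had 604 and 546 against 78.9 and 158 TPM (−2.35). All of these were stable calls.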
